A study of Mus musculus with 6 samples.

Results

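The genes of cholesterol synthesis and of the sterol regulatory element-binding proteins (SREBPs) were followed in polyA RNA from whole mouse aortic arches. A list of 33 genes was fixed by name: 20 that make or carry sterols and isoprenoids, 5 that regulate SREBPs, and 8 that make and desaturate fatty acids. Of these, 32 were found by gene symbol among the 14298 genes of the deposited table, and Hmgcs1 was not analysed here. All 32 had passed the low-value filter, which the listed genes met already. All animals were of strain C57/BL6, were ApoE-/- (they lack apolipoprotein E and are prone to atherosclerosis) and carried RBPJflox/flox, floxed alleles of Rbpj, through which Notch receptors act on DNA. The 3 control libraries (S591, S592 and S594) came from mice without Cre. The 3 knockout libraries (S595, S598 and S599) came from mice with Cdh5-CreERT, a tamoxifen-activated recombinase driven by the promoter of the endothelial cadherin gene. Animals of both groups had tamoxifen for 1 week from 8 weeks of age and then a high-fat diet for 6 weeks. The groups thus differ in the presence of the recombinase as well as in the deletion, and the recombinase acts in endothelial cells, which are 1 of several cell types in the tissue measured.

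Cells make cholesterol from acetyl-CoA through mevalonate, isoprenoid units, squalene and lanosterol, and they make fatty acids from the same acetyl-CoA. SREBPs are membrane-bound transcription factors of the endoplasmic reticulum. The escort protein SCAP carries them to the Golgi for cleavage when membrane sterols are low, and INSIG proteins hold the complex back when sterols are plentiful. The product of Srebf2 acts mainly on sterol genes and that of Srebf1 mainly on fatty acid genes, and Srebf1 is in turn a target of the oxysterol receptor LXR. Fat cells around the vessel wall are a main site of fatty acid synthesis in an aortic sample.

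Levels are normalised CPM (read counts scaled to a common library size). Differences are given as log2 fold changes of value + 1, positive where the knockout was higher. They were tested with limma, with Benjamini-Hochberg adjusted p-values over the 14298 genes. The libraries held 5904504 to 10072495 reads, and between 22 and 78128 reads lay behind a single value of a member. The smooth muscle gene Myh11 (3259 to 8318) and the endothelial gene Cdh5 (109 to 198) were present in all 6 libraries, as was the brown fat gene Ucp1 (138 to 815). Myh11 read 6075, 4844 and 3259 in the controls and 8184, 8318 and 6386 in the knockouts. All 8 smooth muscle markers had positive log2 fold changes (0.55 to 0.73), and 0 passed in limma. At an unadjusted p under 0.05, 3 were higher, beside 8.04% of all genes. For 3, every knockout was above every control, beside 11.3% of all genes. The part of smooth muscle in the values of members was not tested. Rbpj, the targeted gene, stood at 189 ± 13.2 (SD, n = 3) in the control and 193 ± 21.7 (n = 3) in the knockout arches. Its gene-level value in whole tissue does not check a deletion in one cell type. In whole tissue, fewer cells of a type and less RNA per cell cannot be told apart.

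The promoters of 4 members, none of which passed the test between genotypes, are shown first. They are the 250 bases before the start of transcription, 5′ to 3′, from RefSeq on build GRCm38.p6. Ggps1 and Msmo1 were the members whose groups did not overlap, and Fasn and Elovl6 were those of the fatty acid arm with the widest spread. Capitals mark the letters CCAAT on either strand (ATTGG on the strand shown), the box bound by NF-Y, a factor that works with SREBPs at many sterol gene promoters.
Ggps1, chr13:14063489-14063738, minus strand: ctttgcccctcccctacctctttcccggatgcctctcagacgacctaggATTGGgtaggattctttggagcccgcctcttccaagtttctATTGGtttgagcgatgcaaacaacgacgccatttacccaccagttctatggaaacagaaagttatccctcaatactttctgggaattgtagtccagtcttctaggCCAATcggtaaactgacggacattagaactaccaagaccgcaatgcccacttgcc
Msmo1, chr8:64733579-64733828, minus strand: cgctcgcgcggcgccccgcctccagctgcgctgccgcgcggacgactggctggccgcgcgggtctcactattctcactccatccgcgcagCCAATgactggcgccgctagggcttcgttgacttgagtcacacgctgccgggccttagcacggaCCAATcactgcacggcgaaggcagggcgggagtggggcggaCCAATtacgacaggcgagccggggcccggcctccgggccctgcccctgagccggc
Fasn, chr11:120824548-120824797, minus strand: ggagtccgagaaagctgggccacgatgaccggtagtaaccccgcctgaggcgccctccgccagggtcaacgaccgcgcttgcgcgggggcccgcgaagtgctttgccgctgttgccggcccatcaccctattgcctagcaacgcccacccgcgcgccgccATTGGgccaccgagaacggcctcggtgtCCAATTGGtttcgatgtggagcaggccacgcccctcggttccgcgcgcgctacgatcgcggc
Elovl6, chr3:129532136-129532385, plus strand: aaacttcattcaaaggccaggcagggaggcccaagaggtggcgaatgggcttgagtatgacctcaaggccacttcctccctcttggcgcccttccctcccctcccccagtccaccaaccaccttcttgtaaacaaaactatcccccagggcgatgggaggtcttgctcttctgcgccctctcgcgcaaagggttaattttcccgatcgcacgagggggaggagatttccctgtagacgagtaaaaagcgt
The stretches of Ggps1, Msmo1 and Fasn held 3 such boxes each, with some overlap of letters in Fasn, and that of Elovl6 held 0. Promoters of 26 of the 32 members were matched by symbol, and 20 of them (76.9%) had a CCAAT in at least 1 of their 250-base stretches, against 37.5% of the 27025 genes with promoters in the table. By arm these were 14 of 15 sterol genes (Acat2 was the exception) and 2 of 6 fatty acid genes (Fasn and Acss2). A core of the sterol regulatory element, TCACNCCAC on either strand (GTGGNGTGA on the other), was found in 0 of the 26 members and in 1.22% of all genes. These matches describe letters in a fixed stretch and say nothing of factor binding.

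No member passed the test between genotypes. By limma, 0 of the 32 had an adjusted p under 0.05, where 0.0210% of all genes passed as higher and 0.00% as lower. At an unadjusted p under 0.05, 2 members (Ggps1 and Msmo1) were higher, against 8.04% of all genes, and 0 were lower, against 12.0% of all genes. The edgeR quasi-likelihood test on recovered reads called 0 of the 32 at an adjusted p under 0.05, beside 0.00% of all genes in either direction, and DESeq2 called 0, beside 2.01% of all genes as higher and 4.29% as lower. Both had Ggps1 and Msmo1 higher at an unadjusted p under 0.05, where edgeR had 8.13% of all genes higher and 12.1% lower, and DESeq2 7.81% and 10.4%. The knockout values lay wholly above the control values for those 2 members, against 11.3% of all genes, and wholly below them for 0 members, against 14.2% of all genes. These shares are near or under the background. The median log2 fold change was 0.04 over the 19 sterol genes, 0.14 over the 5 regulators and −0.27 over the 8 fatty acid genes, beside −0.02 over all genes. The sign of these medians rested on single libraries. The fatty acid median was 0.29 without control S591 and 0.02 without knockout S598. The sterol median was 0.17 without S591, −0.08 without control S592, −8.50e-03 without control S594 and −4.91e-03 without knockout S595, and the regulator median was 0.23 without S591, 0.066 without S592, 0.021 without S598 and −2.41e-04 without S594.

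**Figure D1:**
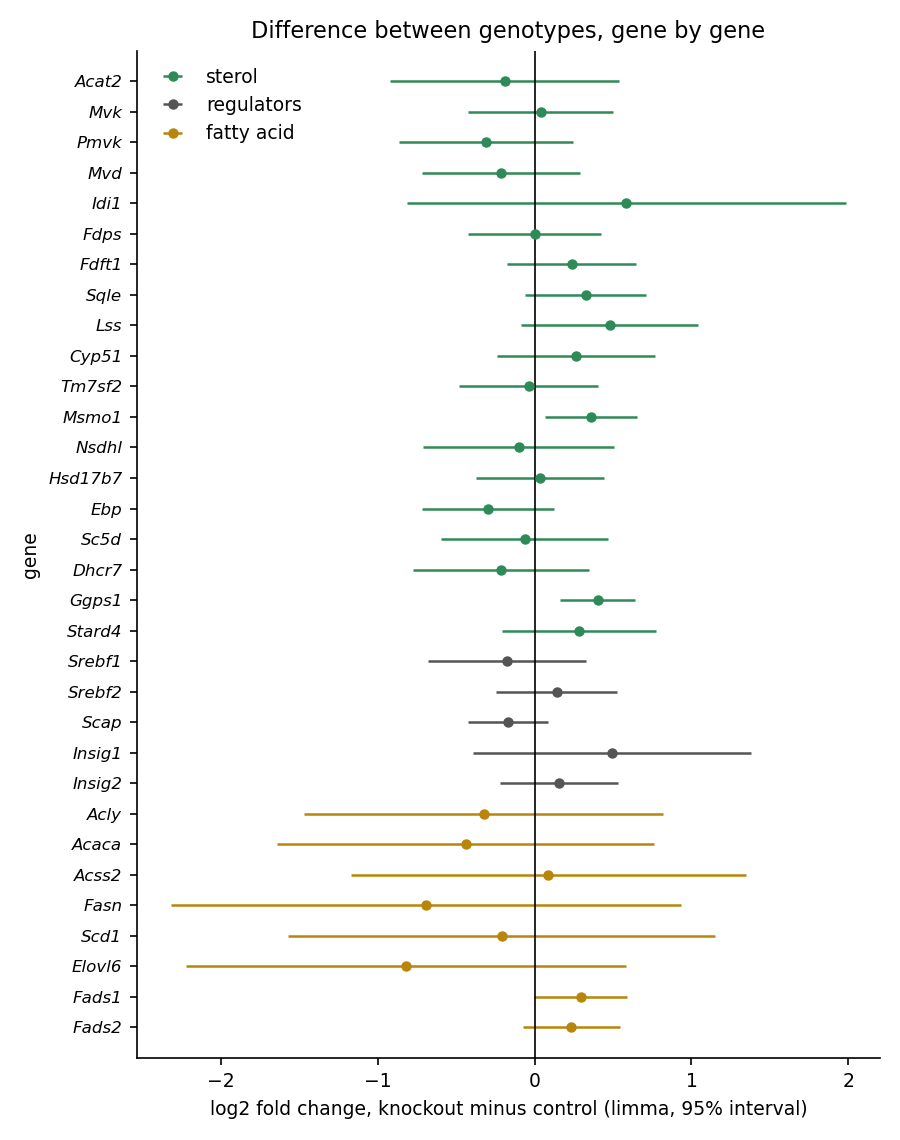
Log2 fold change, knockout minus control, of each of the 32 members (points) with its 95% interval from limma (bars), sterol genes, regulators and fatty acid genes in separate colours. Only the intervals of Msmo1 and Ggps1 exclude 0 before adjustment, and those of the fatty acid genes from Acly to Elovl6 are wide, reaching from −2.32 to 0.93 for Fasn.

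Among the regulators, the genes of the transcription factors themselves differed by less than their spread between libraries. Srebf1 read 177, 104 and 186 in controls S591, S592 and S594, and 139, 119.5 and 142 in knockouts S595, S598 and S599. All 3 knockout values fell between the lowest and the highest control, and the log2 fold change was −0.18 (95% interval −0.68 to 0.33, limma adjusted p = 0.693). The table gives 1 value per gene, so the forms made from its separate promoters are not told apart, and 109 bases of its exons are shared with Rai1 on the opposite strand. Srebf2 read 68.1, 53.7 and 57.9 in the controls and 70.2, 77.8 and 52.1 in the knockouts. Its groups overlapped, with the lowest value of all in knockout S599 (log2 fold change 0.14, interval −0.25 to 0.53, limma adjusted p = 0.681).

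The escort gene Scap read 47.7, 46.5 and 50.1 in the controls and 48.0, 39.9 and 40.3 in the knockouts. The knockouts S598 and S599 were under every control and S595 was not, with a log2 fold change of −0.17 (interval −0.43 to 0.08, limma adjusted p = 0.427). Insig1, a retention gene that is itself an SREBP target, read 97.8, 34.3 and 34.3 in the controls and 62.3, 82.3 and 63.9 in the knockouts. Control S591 was the highest library and the other controls the lowest, so the fold change of 0.49 had a wide interval, −0.39 to 1.38 (limma adjusted p = 0.513). Without control S591 it was 0.99 and passed the test (limma adjusted p = 0.0301), where 1.41% of all genes were called higher. Insig2, the isoform less dependent on SREBPs, read 69.7, 62.0 and 47.4 against 59.0, 74.9 and 64.4, with overlapping groups and a log2 fold change of 0.15 (limma adjusted p = 0.636).

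**Figure D2:**
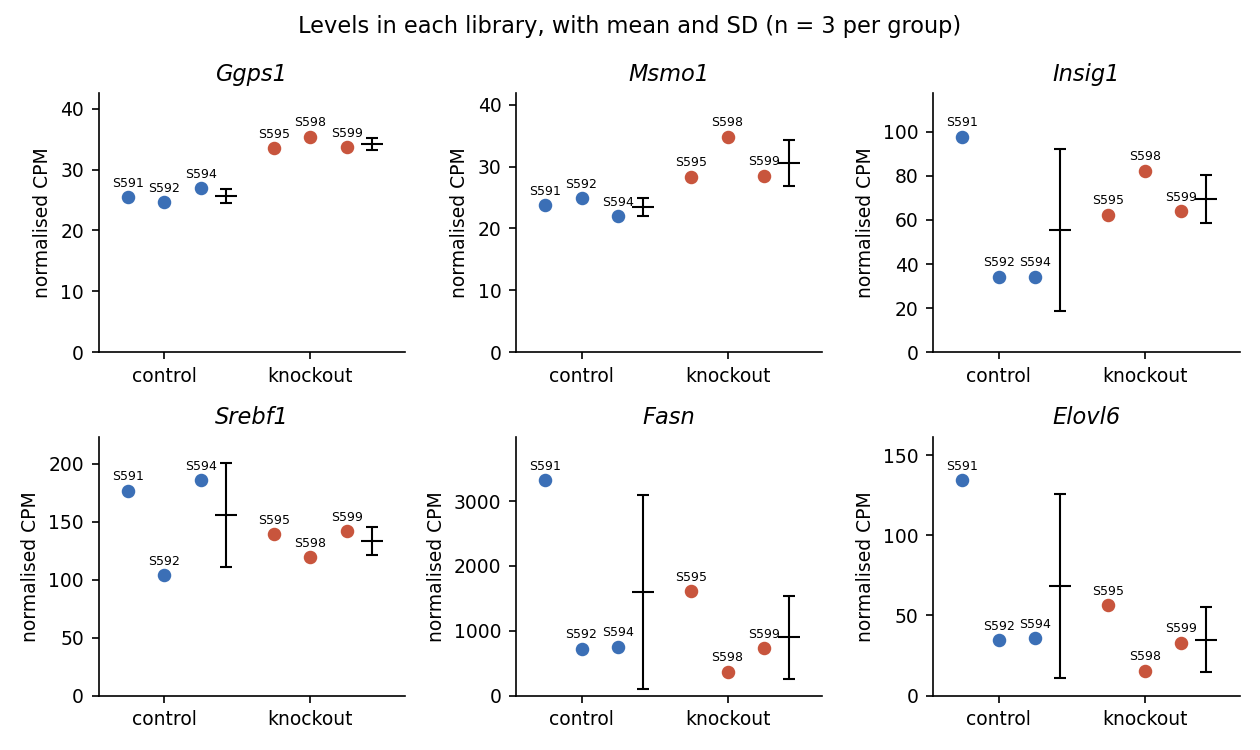
Normalised CPM of 6 members in each library (points, labelled by library number), with group mean and SD at the right of each group (bars, n = 3). Ggps1 and Msmo1 separate the groups, whereas control S591 stands above the other controls for Insig1, Fasn and Elovl6.

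In the first steps of the sterol arm, from acetyl-CoA to isopentenyl units, the genotypes overlapped for all 5 genes analysed. The thiolase gene Acat2, whose close copy Acat3 makes its reads uncertain, read 56.4, 22.1 and 33.1 in the controls and 35.5, 24.5 and 31.5 in the knockouts. The mevalonate kinase gene Mvk (control 10.9 ± 2.36, knockout 11.1 ± 1.68), the phosphomevalonate kinase gene Pmvk (14.4 ± 5.49 and 10.9 ± 0.236) and the decarboxylase gene Mvd (5.61 ± 0.689 and 4.77 ± 1.21, n = 3 each) had log2 fold changes of 0.04, −0.31 and −0.21. For Pmvk the 3 knockouts lay close together, from 10.7 to 11.1, and control S591 alone stood apart at 20.7. The isomerase gene Idi1 was the most variable sterol member, at 25.9, 4.49 and 9.72 in the controls and 12.2, 32.3 and 11.1 in the knockouts. Its highest library was 7.20 times its lowest, and its log2 fold change of 0.59 had an interval from −0.81 to 1.98 (limma adjusted p = 0.633). It was 1.19 without control S591 (unadjusted p = 0.0443 and adjusted p = 0.194 in limma), 0.043 without control S592 and 0.12 without knockout S598.

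In the isoprenoid branch, Ggps1 (ENSMUSG00000021302), which makes geranylgeranyl diphosphate for protein prenylation, had the smallest p of the 32 members. It read 25.5, 24.6 and 26.9 in controls S591, S592 and S594 and 33.6, 35.4 and 33.7 in knockouts S595, S598 and S599. Every knockout was above every control, and the spread within a group was small (25.7 ± 1.18 and 34.2 ± 1.04, n = 3 each). Knockout exceeded control by 0.40 on the log2 scale (standard error 0.10, interval 0.16 to 0.64), that is 1.12-fold to 1.56-fold, and it did not pass over all genes (limma adjusted p = 0.121). With limma array weights it did (0.43, limma adjusted p = 0.0435), a setting in which 2.01% of all genes were called higher. Ggps1 shares 257 exon bases with Arid4b on the opposite strand, and the library kit named in the labels does not mark strand. Arid4b read 57.7, 59.9 and 51.5 in the controls and 70.8, 75.3 and 74.5 in the knockouts, a log2 fold change of 0.38 (limma adjusted p = 0.121). The share of Ggps1 reads that Arid4b could give was not tested. Fdps, the farnesyl diphosphate synthase gene one step earlier, read 23.9, 17.4 and 17.9 against 21.8, 21.5 and 15.8, with equal group means of 19.7 ± 3.63 and 19.7 ± 3.40 (n = 3 each), and it shares 1124 exon bases with the gene model Gm43738 on the same strand.

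The 3 genes that take farnesyl units to lanosterol all had positive log2 fold changes, and 0 passed. The squalene synthase gene Fdft1 read 25.7, 15.9 and 18.9 in the controls and 23.2, 23.3 and 24.0 in the knockouts (0.24, limma adjusted p = 0.496). It shares 774 exon bases with Ctsb on the opposite strand, a lysosomal protease gene that read 4876, 6603 and 6554 against 3243, 2130 and 4541, in the other direction. Sqle, the squalene epoxidase gene and a rate-limiting step, read 12.9, 11.2 and 12.6 against 18.3, 16.0 and 12.8. Knockouts S595 and S598 were above all controls and S599 was not, with a log2 fold change of 0.33 and an interval of −0.06 to 0.71 (limma adjusted p = 0.319). Lss, the lanosterol synthase gene, read 25.3, 13.5 and 14.2 against 21.5, 22.9 and 28.1, so that control S591 sat among the knockouts. Its log2 fold change was 0.48 (interval −0.09 to 1.04, limma adjusted p = 0.318), and without control S591 it was 0.75 and passed (limma adjusted p = 0.0492).

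From lanosterol to cholesterol, 8 genes were analysed, of which 3 had positive and 5 negative log2 fold changes. Msmo1 (ENSMUSG00000031604), the methylsterol monooxygenase that removes the 4-methyl groups, read 23.7, 24.9 and 22.0 in the controls and 28.4, 34.9 and 28.5 in the knockouts. All 3 knockouts were above all controls, with S598 the highest, and the log2 fold change was 0.36 (standard error 0.13, interval 0.07 to 0.66, limma adjusted p = 0.181). Its unadjusted p in limma was 0.0229, and it was over 0.05 without control S594 and without knockout S598. Nsdhl, which acts in the same demethylation, read 22.7, 14.3 and 11.5 against 17.1, 11.3 and 15.3, with no separation of the groups (−0.10, limma adjusted p = 0.862). Cyp51, the lanosterol demethylase gene, read 18.6, 14.1 and 15.1 against 23.4, 21.8 and 13.8. Its knockouts S595 and S598 were the highest libraries and S599 the lowest (0.26, limma adjusted p = 0.542), and 166 of its exon bases are shared with Akap9 on the opposite strand.

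The later enzymes lay on either side of 0 with overlapping groups. The isomerase gene Ebp read 21.8, 21.8 and 29.4 against 21.8, 15.7 and 21.3 (−0.30, limma adjusted p = 0.401), and the desaturase gene Sc5d 31.4, 18.3 and 16.8 against 18.8, 22.2 and 20.2 (−0.06). Dhcr7, whose product makes cholesterol from its last precursor in one branch of the pathway, read 16.8, 15.1 and 9.85 against 9.82, 10.4 and 15.2 (−0.21, limma adjusted p = 0.666). The reductase genes Tm7sf2 (6.36 ± 1.19 and 6.13 ± 0.684) and Hsd17b7 (6.73 ± 0.412 and 6.97 ± 1.08, n = 3 each) differed by −0.04 and 0.04, and 532 exon bases of Tm7sf2 are shared with Vps51. Stard4, a carrier that moves cholesterol between membranes, read 12.5, 9.72 and 9.48 against 9.66, 15.3 and 14.9, with S595 at the level of the controls (0.29, limma adjusted p = 0.494).

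In the fatty acid arm the difference between libraries was far larger than that between genotypes. Fasn, the fatty acid synthase gene, read 3322, 727 and 752 in controls S591, S592 and S594 and 1609, 366 and 729 in knockouts S595, S598 and S599. Control S591 was the highest library and knockout S598 the lowest, 9.07 times apart, while the libraries in between included both genotypes. The group values were 1601 ± 1491 and 901 ± 639 (n = 3 each), with a log2 fold change of −0.69 and an interval from −2.32 to 0.93 (limma adjusted p = 0.625). The interval spans 0.200-fold to 1.91-fold. Without control S591 the value was 0.030, and without knockouts S598 and S599 it was 0.40.

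Control S591 was the highest library for the other lipogenic enzymes too. The chain-elongating Elovl6 read 134, 34.5 and 35.7 against 56.4, 15.5 and 33.1, with a log2 fold change of −0.82 (interval −2.22 to 0.58, limma adjusted p = 0.493), which was −0.18 without control S591, −0.34 without knockout S598 and −1.24 without knockout S595. The acetyl-CoA carboxylase gene Acaca, which commits carbon to fatty acids, read 685, 194 and 209 against 349, 138 and 232 (−0.44, limma adjusted p = 0.680). The citrate lyase gene Acly read 591, 195 and 163 against 306, 138 and 226 (−0.33, limma adjusted p = 0.755). For Elovl6, Acaca and Acly, S591 was the highest library, S595 the next and S598 the lowest, as for Fasn. The acetate-activating Acss2 read 117, 28.6 and 26.8 against 68.4, 35.0 and 45.8, with S594 the lowest and a log2 fold change of 0.09 (limma adjusted p = 0.943). On the opposite strand, Acss2 shares 395 exon bases with Gss and 197 with Ggt7. The stearoyl-CoA desaturase gene Scd1, which makes monounsaturated fatty acids, read 13882, 2917 and 5127 against 6458, 3526 and 5886, with S592 the lowest (−0.21, limma adjusted p = 0.874).

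The genes that desaturate polyunsaturated fatty acids did not share this spread. Fads1 read 80.0, 66.1 and 69.1 in the controls and 75.7, 95.2 and 94.0 in the knockouts, where S598 and S599 were above every control and S595 was not (log2 fold change 0.29, interval −0.00 to 0.59, limma adjusted p = 0.253). Fads2 read 37.8, 31.3 and 29.4 against 41.6, 39.9 and 34.7, with S595 and S598 above every control (0.24, limma adjusted p = 0.367). The highest library was 1.44 times the lowest for Fads1 and 1.41 times for Fads2, against 4.28 to 9.07 times for the 6 genes Acly, Acaca, Acss2, Fasn, Scd1 and Elovl6.

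**Figure D3:**
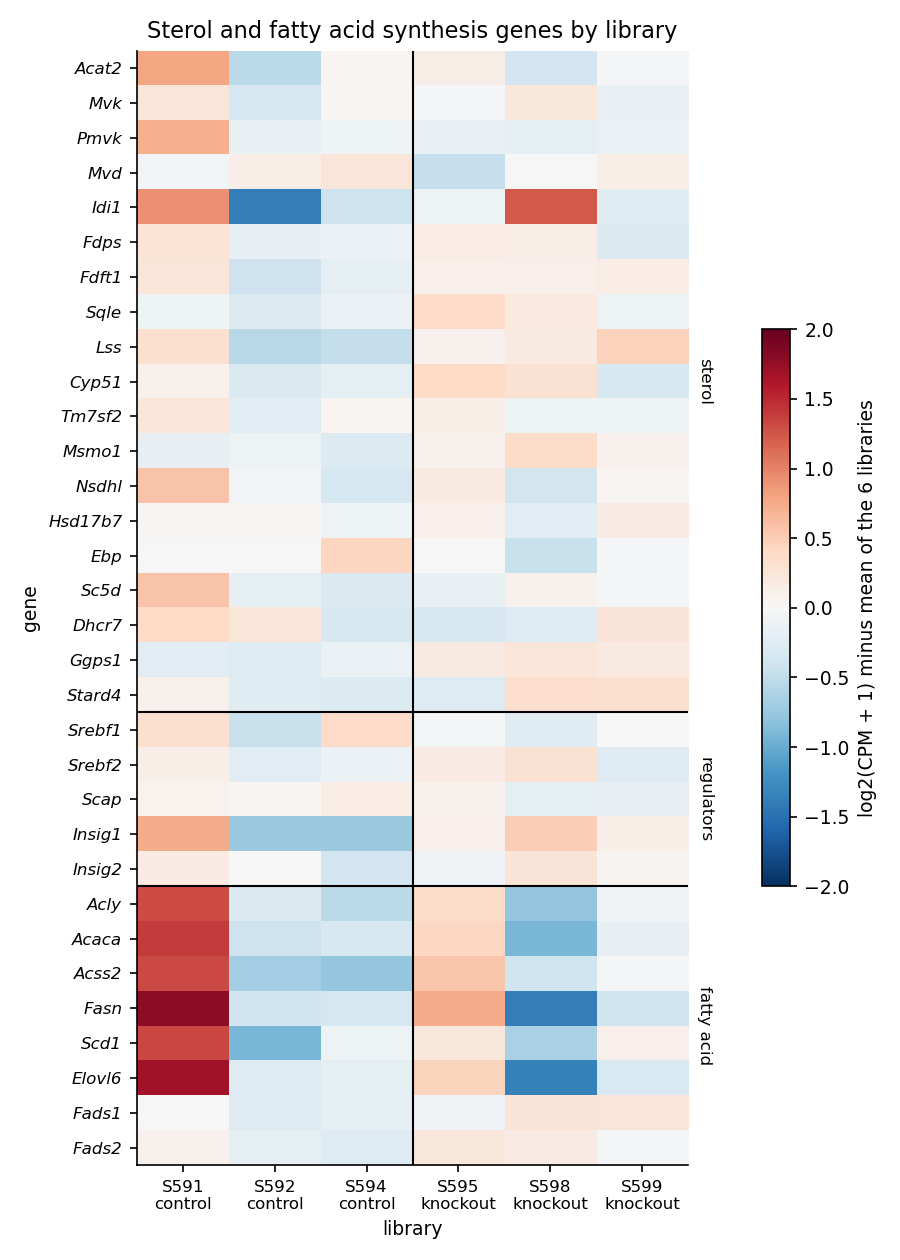
Level of each member in each library as log2(CPM + 1) minus the gene's mean over the 6 libraries (colour, red above and blue below the mean), with genes in rows by arm and libraries in columns by genotype. Acly to Elovl6 are high in S591 and S595. Their mean deviation is −0.91 in S598, −0.49 in S592, −0.38 in S594 and −0.14 in S599. Among the sterol genes Idi1 ranges most, with Acat2 and Pmvk also high in S591.

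Set beside each other per library, the arms moved by different amounts. The mean deviation of the 19 sterol genes from their average over the libraries was 0.26, −0.25 and −0.14 in controls S591, S592 and S594, and 0.03, 0.08 and 0.02 in knockouts S595, S598 and S599. The 3 knockouts lay within the range of the controls. The mean deviation of the 8 fatty acid genes was 1.12, −0.42 and −0.34 in the controls and 0.36, −0.63 and −0.08 in the knockouts. The sterol mean minus the fatty acid mean was −0.85, 0.17 and 0.21 in the controls and −0.34, 0.71 and 0.10 in the knockouts. Its group means differed by 0.32, less than the pooled SD of 0.57 between libraries of a group, and by −0.03 without control S591. S598 was the library with the highest sterol arm among the knockouts and the lowest fatty acid arm of all 6, and S591 was the highest in both arms. The median SD within groups, on the log2 scale, was 0.25 for sterol genes, 0.24 for regulators and 0.87 for fatty acid genes, against 0.21 for all genes, whose 90th percentile was 0.46.

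Fat cell markers, like the fatty acid arm, were highest in S591. By mean deviation, the white and general list was lowest in S592 (−0.97, with S598 at −0.14). The brown list was lowest in S598 (−0.67, with S592 at −0.65), as was the fatty acid arm (−0.63, with S592 at −0.42). Of 22 white and brown adipocyte markers, all listed, 18 were highest in S591, beside 2473 of all 14298 genes. So were 6 of the 8 fatty acid genes and 9 of the 19 sterol genes. S592 was lowest for 15 of the 22 markers and 2 of the 8 fatty acid genes, and S598 for 3 and 4. Their summed level ran from 1411 to 5051 in the controls and from 1928 to 2866 in the knockouts. Adipoq, the adiponectin gene, read 155, 47.3 and 124 in the controls and 100.1, 84.2 and 87.2 in the knockouts, and Ucp1, the uncoupling protein of brown fat, read 815, 146 and 260.3 against 298, 138 and 249. Of these 22 markers 0 separated the genotypes, beside 11.3% of all genes with the knockout higher and 14.2% with it lower. At an unadjusted p under 0.05, 1 was higher (Lep), beside 8.04% of all genes, and 1 lower (Elovl3), beside 12.0%. The part of fat cells in the fatty acid arm was not tested. The orders were not the same throughout: Fasn over Adipoq was 21.4, 15.4 and 6.06 in the controls and 16.1, 4.35 and 8.36 in the knockouts, and Fasn over Ucp1 varied less, at 4.08, 4.97 and 2.89 against 5.41, 2.66 and 2.93.

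**Figure D4:**
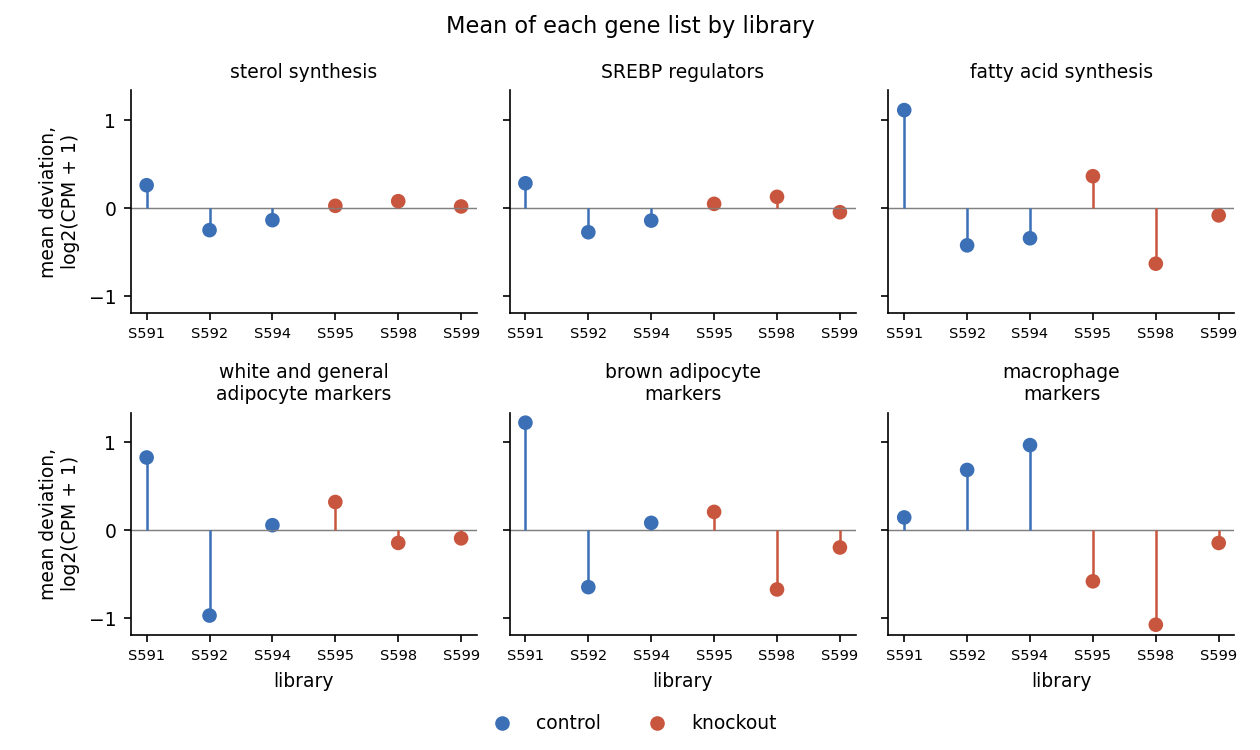
Mean over each gene list of log2(CPM + 1) minus the gene's mean over the 6 libraries, by library (points, coloured by genotype, joined to 0). The fatty acid arm and both adipocyte lists are highest in S591, the sterol arm stays within 0.26 of 0, and the macrophage list is higher in all 3 controls.

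The other genes of the pathways, 43 in all and each listed, were read next. In limma 0 of 43 passed over all genes. At an unadjusted p under 0.05, 1 was higher, beside 8.04% of all genes, and 8 were lower, beside 12.0% of all genes. Among 10 further sterol and isoprenoid genes the median log2 fold change was 0.04. Lbr, whose product also acts as a sterol reductase, read 25.1, 27.0 and 28.6 against 31.3, 41.6 and 42.2, with every knockout above every control (0.49, limma adjusted p = 0.139). Soat1, which esterifies cholesterol for storage, read 84.0, 125 and 118 against 68.7, 44.4 and 91.8, with S599 above the lowest control (−0.70, limma adjusted p = 0.203). Among 10 genes of SREBP cleavage, transport and turnover the median was 0.00 and the range −0.26 to 0.22, with 0 at an unadjusted p under 0.05. The smallest p was that of Rnf139, a ubiquitin ligase gene, which read 43.4, 45.7 and 41.2 against 53.5, 48.5 and 50.7 (0.22, limma adjusted p = 0.251).

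Among 15 further genes of fatty acid, NADPH and triglyceride synthesis, 14 were highest in S591, beside 2473 of all 14298 genes. The lipogenic enzymes above were highest there too. The median log2 fold change of the 15 was −0.19. The smallest p was that of Pgd, the NADPH-producing enzyme gene of the pentose phosphate pathway, which read 144, 124 and 143 against 97.8, 58.7 and 81.9. Every knockout was under every control (log2 fold change −0.81, interval −1.23 to −0.38, limma adjusted p = 0.112), and DESeq2 called it lower (DESeq2 adjusted p = 0.00861), as it did 4.29% of all genes.

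Genes of the LXR pathway and of cholesterol efflux and transport had mostly negative log2 fold changes, and 0 of 8 passed over all genes in limma. An unadjusted p under 0.05 was reached by 6, all lower, beside 12.0% of all genes, and the median log2 fold change was −0.50. Npc2, which hands cholesterol out of lysosomes, read 384, 447 and 428 against 243, 187 and 288 (−0.83, limma adjusted p = 0.107), and the efflux transporter gene Abca1 read 508, 726 and 774 against 358, 275 and 563 (−0.79, limma adjusted p = 0.180). Abcg1, another efflux transporter gene, read 156, 259.6 and 275 against 112, 66.9 and 149, with every knockout under every control (−1.10, limma adjusted p = 0.137). DESeq2 called Npc2 (DESeq2 adjusted p = 0.00154) and Abcg1 (DESeq2 adjusted p = 0.0196) lower, as it did 4.29% of all genes. Limma with array weights called Npc2, Abcg1 and Npc1, a lysosomal cholesterol transporter gene, lower, beside 5.06% of all genes, and limma without control S591 called Npc1 and Npc2, beside 3.29%. Macrophage markers moved with these genes: 12 of 12 were lower at an unadjusted p under 0.05, beside 12.0% of all genes, with summed levels from 6519 to 10979 in the controls and from 2678 to 6467 in the knockouts, and Cd68 at 255, 381 and 377 against 146, 73.1 and 206. By mean deviation the efflux, macrophage and fibroblast lists were all highest in S594 and lowest in S598. Of 8 fibroblast markers, 7 had negative log2 fold changes. In limma 2 of the 8 were lower at an unadjusted p under 0.05, beside 12.0% of all genes. These lists were chosen with earlier results of these data known, so these counts are not independent support. The part of macrophages or of fibroblasts in the lower efflux genes was not tested. In the same libraries the sterol arm had 2 of 19 genes higher at that level, beside 8.04% of all genes. It had 0 lower, beside 12.0% of all genes. The difference between the arm and the efflux genes was not tested.

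Thymocyte and T cell markers (11 of 12 listed) summed to 33.7 to 44.5 in the controls and 30.7 to 221 in the knockouts. They were high in S598 and S599, where Dntt, a gene of immature lymphocytes, read 23.5 and 7.16 against 0.872 to 1.69 in the other libraries. Without these 2 libraries, with S595 the 1 knockout left and assumed to vary like the controls, 0 members passed, beside 0.00% of all genes as higher, and Ggps1 and Msmo1 no longer had an unadjusted p under 0.05 while Sqle did, beside 3.09% of all genes higher (log2 fold change 0.55, limma adjusted p = 0.522). The fatty acid median was then 0.20 and the sterol median 0.12.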

How the data were processed

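Gene expression was measured in aortic arches of 3 control and 3 knockout mice, grouped by the sample titles. Columns of the deposited table name a genotype and a library number but no replicate number. Tools named in the submitters' processing notes, with no role given, were RSEM 1.16, Bowtie 0.12.7, cutadapt 1.6.1, CASAVA 1.8, edgeR and limma, and the build was NCBIM37. The deposited values are a normalised signal, 1 per gene and library. Per the values themselves they equal (reads + 0.5) scaled to CPM with TMM factors, and whole reads were recovered from 100% of them at a tolerance of 0.01. One read was worth 0.0964 to 0.178 CPM. Symbols came from a table of another annotation release, in which 13828 of 14298 identifiers matched. Exon overlaps were read from that annotation by name only.

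Groups were compared with limma 3.58.1 (run in R 4.3.3), which took log2(value + 1) as input, used a trend on intensity, had genotype as the 1 factor and kept genes with at least 1 CPM in at least 3 libraries (0 removed), with two-sided p and Benjamini-Hochberg adjustment at 0.05. Alternatives used edgeR 4.0.16 and DESeq2 1.42.0 on recovered reads, limma-voom, array weights, other scalings, pseudocounts and filters, and left-out libraries. Simulated counts of the same 14298 genes, all with 1 common dispersion, served as a test of the code. There limma recovered 63.6% of 107 genes changed by 1 and 96.8% of 93 changed by 2 on the log2 scale, with 7 false calls. Members varied unequally, with a median SD within groups of 0.25 for sterol and 0.87 for fatty acid genes. These shares therefore do not give what could be detected for them. The members and gene lists were chosen with earlier results of these data known. Per-library values were set to be given for the regulators, the 4 members of each arm with the smallest p, and Sqle, Fasn and Scd1, and are given for further members too. Of other lists, up to 2 genes with the smallest p and set markers are named, and Ctsb and Arid4b were named after their values were seen, as was Npc1.

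Marker lists covered white and brown adipocytes, macrophages, thymocytes and T cells, smooth muscle, endothelium, fibroblasts, proliferating cells and hepatocytes. Median log2 fold changes of lists whose medians are not given in the results were 0.63 (smooth muscle, 8 genes), −0.03 (endothelium, 8), −0.34 (fibroblasts, 8), −0.34 (proliferating cells, 10), 1.16 (thymocytes and T cells, 11 of 12 listed), −0.09 (white adipocytes, 12), −0.36 (brown adipocytes, 10) and −1.17 (macrophages, 12), and 1 of 6 hepatocyte markers was listed.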

Additional observations from a re-analysis of the deposited data

How the results depend on the processing

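No paired analysis was possible because the column headings carry library numbers and not the replicate numbers of the titles. Against 3 genes called over the whole table, the number was 0 with a pseudocount of 0.5, with a minimum of 5 CPM, with edgeR, with limma-voom and without S598 and S599, 1 without the trend, 1011 with array weights, 900 with DESeq2, and 0 to 671 with 1 library left out. At an unadjusted p of 0.05 it was 2860, or 1347 without S598 and S599 and 1582 to 3447 with 1 library left out. Array weights called 1 sterol gene (Ggps1, 0.43) and 5 of the 43 other pathway genes, beside 2.01% of all genes higher and 5.06% lower. DESeq2 called 3 of those 43, beside 2.01% of all genes higher and 4.29% lower. With 1 library left out, 0 to 1 sterol genes, 0 to 1 regulators and 0 to 2 of the other pathway genes were called, each time without control S591. In that setting 1.41% of all genes were called higher and 3.29% lower.

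Of 352 fold changes of members under 11 processing alternatives, 345 kept sign and side of the threshold. With array weights the sign turned for Tm7sf2 (0.030), Hsd17b7 (−0.034), Sc5d (0.083) and Scd1 (0.060), and Acss2 was −0.20 in edgeR and −0.19 in DESeq2. Without S598 and S599 it turned for Acat2 (0.036), Tm7sf2 (0.12), Nsdhl (0.13), Stard4 (−0.11), Insig2 (−1.65e-04), Acly (0.20), Acaca (0.20), Fasn (0.40), Scd1 (0.12) and Elovl6 (0.032). With 1 library left out, the range crossed 0 or reached a call for Acat2 (−0.51 to 0.15), Lss (0.32 to 0.75), Tm7sf2 (−0.16 to 0.077), Nsdhl (−0.30 to 0.16), Sc5d (−0.23 to 0.21), Insig1 (0.25 to 0.99), Acly (−0.68 to 0.25), Acaca (−0.76 to 0.15), Fasn (−1.24 to 0.030), Scd1 (−0.72 to 0.40), Mvk (−0.12 to 0.17), Fdps (−0.079 to 0.15), Acss2 (−0.28 to 0.77), Hsd17b7 (−0.039 to 0.15) and Insig2 (−2.41e-04 to 0.27). The cause of these changes was not tested. The fatty acid median ran from −0.63 to 0.29, positive without control S591 (0.29) or knockout S598 (0.02), and the sterol median from −0.08 to 0.17. The intervals printed with the results are 95% limma intervals, unadjusted, with 3 libraries a group. They do not set what could pass over all genes. Those of Ggps1 (0.16 to 0.64) and Msmo1 (0.07 to 0.66) excluded 0, and neither gene passed (limma adjusted p = 0.121 and 0.181).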

Other observations

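In Idi1 and Insig1 alike, S591 and S598, one library of each genotype, were the highest. The leptin gene Lep read 13.4, 1.14 and 0.929 in controls S591, S592 and S594 and 8.90, 18.9 and 24.8 in knockouts S595, S598 and S599, an order unlike that of Adipoq or Ucp1 (log2 fold change 2.14, interval 0.37 to 3.91, limma adjusted p = 0.184).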
